A study of Arabidopsis thaliana with 24 samples.

Results

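Aquaporins are membrane channels of the major intrinsic protein family, and Arabidopsis thaliana encodes 35 of them in 4 subfamilies. All 35 loci were taken by their locus identifiers in the TAIR10 annotation, so none was left out for its values. The family itself was chosen with earlier results of these data known. Of these, 33 were among the 23929 genes with counts in this series, while TIP1-3 (AT4G01470) and NIP4-1 (AT5G37810) were not analysed here. Genes are named in the UniProt form, in which PIP2-1 is the gene also written with a semicolon. The study sequenced RNA of whole seedlings from 8 groups with 3 independent biological replicates each, 24 libraries in all. Seedlings of the lines labelled vq1, vq10 and vq1vq10, which the study's title calls hypermorphic, and of the wild type Col-0 (Col below) had grown for 14 days on medium with 1% sucrose. Growth light was 150 micromol photons per square metre and second, with 16 h of light and 8 h of dark. On day 15, at zeitgeber time 4 h (4 h after lights on), each genotype was placed in hypoxia (1% oxygen) or left in normoxia (21% oxygen). Both treatments lasted 4 h, under dim light of 30 micromol photons per square metre and second. vq1vq10 is the double mutant, and what the alleles are was not stated in the labels.

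Aquaporins form tetramers in which each subunit has its own pore, and the residues lining the pore set what passes. Plasma membrane intrinsic proteins (PIPs) carry water, and some carry hydrogen peroxide or carbon dioxide. Tonoplast intrinsic proteins (TIPs) serve the vacuole and pass water, ammonia or urea, nodulin 26-like intrinsic proteins (NIPs) pass boric acid, arsenite or lactic acid, and small basic intrinsic proteins (SIPs) sit in the endoplasmic reticulum. In roots short of oxygen, falling cell pH closes PIPs by protonation of a loop histidine, and NIP2-1 is known as a lactic acid channel whose gene is induced by low oxygen.

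Library totals ran between 21150032 and 22645177 estimated read counts. Levels are given as CPM, counts per 1000000 reads, on library sizes scaled by edgeR's trimmed mean of M-values (TMM), and, where genes are compared with each other, as the deposited TPM, transcripts per 1000000, which take gene length into account. Changes are log2 ratios of hypoxia over normoxia, or of mutant over Col, with their standard error (SE), from edgeR's quasi-likelihood test on 20110 genes. A gene is said to have risen or fallen where the Benjamini-Hochberg adjusted p over all those genes was under 0.05. TMM factors were lower in hypoxic libraries (0.876 to 1.018) than in normoxic ones (1.03 to 1.108). Scaling by the total reads alone, an alternative chosen after seeing the data, shifted the median change of all genes to -0.20 in vq1, -0.24 in vq10, -0.12 in vq1vq10 and -0.25 in Col, and the changes below are relative to the TMM scale. VQ10 mRNA was higher in both lines that carry vq10, by 2.56 ± 0.40 log2 in vq10 and 2.30 ± 0.40 in vq1vq10 against Col in normoxia (SE, edgeR adjusted p = 0.003 and 0.013). VQ1 mRNA did not pass the test in any line, with differences from Col in normoxia of -0.22 ± 0.26 in vq1 and -0.42 ± 0.26 in vq1vq10 (SE, edgeR adjusted p = 0.882 and 1).

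Sequences are shown for the genes whose identity bears on their counts or whose response stood out, read from the RefSeq assembly TAIR10.1. PIP2-2 (AT2G37170) and PIP2-3 (AT2G37180, RD28) are neighbours on chromosome 2, and their coding sequences were identical at 94.8% of 858 aligned bases, with 45 differing bases and a longest identical run of 242 bases. These were the only 2 aquaporins whose deposited counts held fractions in any library, and reads from their identical stretches cannot be assigned to either by sequence. The stretch below is the ungapped 60-base window with the most differences that lies within 1 exon of both genes, and capitals mark the 10 bases that differ.

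PIP2-2, coding strand, chr2:15614198-15614257, minus strand: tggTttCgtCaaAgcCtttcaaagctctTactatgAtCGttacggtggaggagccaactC
PIP2-3, coding strand, chr2:15618313-15618372, plus strand: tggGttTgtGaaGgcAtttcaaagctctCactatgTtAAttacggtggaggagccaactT

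NIP2-1 (AT2G34390, chr2:14514487-14515988, minus strand) has a partial copy, AT2G29870, which was not analysed here. The 2 coding sequences were identical at 97.9% of 419 aligned bases, with 9 differing bases, so reads from that stretch are uncertain in origin. An annotated antisense RNA, AT2G08660, covers 1432 bases of NIP2-1, and no source states the strand setting of the counting, so sense and antisense reads cannot be told apart. Capitals mark the 4 differing bases of a window chosen in the same way.

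NIP2-1, coding strand, chr2:14514670-14514729, minus strand: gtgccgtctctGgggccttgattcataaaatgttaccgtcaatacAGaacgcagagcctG
AT2G29870, coding strand, chr2:12741679-12741738, plus strand: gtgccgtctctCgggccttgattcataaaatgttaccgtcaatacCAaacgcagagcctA

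The 250 bases upstream of each gene start were searched on both strands for AAACCA (the GT motif of the anaerobic response element described for ADH1 genes), CACGTG (the G-box) and AAATATCT (the evening element). AAACCA was found in 9 of the 35 aquaporin windows (25.7%), against 27.3% of 27437 windows of protein-coding genes. CACGTG and AAATATCT were in 0 of 35 windows, against 6.49% and 4.79% of all windows. NIP2-1 held 3 AAACCA matches, at -177, -100 and -34 from its start, and 0.973% of all windows held 3 or more. The matches at -177 and -100 lie inside the transcribed span of the divergent neighbour AT2G34400, so only the 94 bases nearest to NIP2-1 are shown, with its 1 match on the opposite strand in capitals. The windows of PIP2-1, the highest PIP, and of TIP4-1, which had the largest fall in Col, held none of the 3 motifs. A match is a run of letters and was not tested as a binding site.

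NIP2-1, upstream, chr2:14515989-14516082, minus strand: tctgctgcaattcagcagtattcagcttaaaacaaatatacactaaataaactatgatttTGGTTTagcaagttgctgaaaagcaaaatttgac
PIP2-1, upstream, chr3:19805731-19805980, minus strand: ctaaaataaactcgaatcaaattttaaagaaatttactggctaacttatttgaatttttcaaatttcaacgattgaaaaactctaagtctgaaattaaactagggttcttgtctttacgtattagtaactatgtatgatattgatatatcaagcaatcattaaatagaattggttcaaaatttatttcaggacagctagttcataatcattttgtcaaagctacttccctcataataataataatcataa
TIP4-1, upstream, chr2:11012249-11012498, plus strand: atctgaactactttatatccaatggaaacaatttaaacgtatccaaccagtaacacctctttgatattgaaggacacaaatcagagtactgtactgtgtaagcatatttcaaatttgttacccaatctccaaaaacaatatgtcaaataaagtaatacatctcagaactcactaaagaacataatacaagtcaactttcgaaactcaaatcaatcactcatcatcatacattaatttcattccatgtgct

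In normoxic Col seedlings the vacuolar channel TIP1-2 had the highest level of the family, at 3886 ± 231 TPM (SD, n = 3). TIP2-1, the delta-TIP that passes ammonia as well as water, followed at 2182 ± 188 TPM. PIP2-1, a main water channel of leaf and root, and PIP2-7 came next at 1322 ± 30.2 and 1267 ± 98.3 TPM, and the libraries of these 2 genes overlapped. PIP1-2, which passes carbon dioxide and water, had 948 ± 69 TPM, PIP1-3 had 774 ± 76.2 TPM and TIP1-1 (gamma-TIP) had 649 ± 22.2 TPM. The libraries of these 3 genes did not overlap those of the next gene in the order. In all, 13 of 33 genes were above 100 TPM and 4 above 1000 TPM in this group. At the lower end, TIP4-1, PIP2-4, NIP1-1 and SIP2-1 lay between 20.0 and 22.6 TPM and neighbours in this order overlapped. The pollen-type TIP5-1 was listed at 0 in normoxic Col.

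The 33 genes together took 1.23% of all TPM in hypoxic Col and 1.33% in normoxic Col. Summed PIP levels were 7022, 6679 and 6857 TPM in hypoxic Col libraries, against 5943, 6079 and 6495 TPM in normoxic Col. Summed TIP levels were 5383, 5312 and 5201 TPM in hypoxic Col, against 7012, 7000.3 and 6862 TPM in normoxic Col. The PIP sum was thus higher and the TIP sum lower in every hypoxic Col library than in any normoxic one. Summed NIP levels were 106, 88.7 and 190.3 TPM in hypoxic Col, against 54.5, 76.4 and 53.8 TPM in normoxic Col, without overlap. NIP2-1 alone held 70.75, 56.94 and 150.85 TPM of the hypoxic sums, and 1.01, 1.37 and 0.51 TPM of the normoxic ones. The higher NIP sum was thus that of 1 gene, and the other NIPs together were lower in hypoxic Col. Summed SIP levels were 68.1, 63.4 and 68.5 TPM in hypoxic Col, against 100.5, 118 and 94.8 TPM in normoxic Col, also without overlap.

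In the mutants the TIP sum in hypoxia was 0.69 of that in normoxia in vq1, 0.70 in vq10 and 0.66 in vq1vq10, against 0.76 in Col. The SIP ratio lay between 0.64 and 0.68 and the NIP ratio between 2.08 and 2.42 over the 4 genotypes. Without NIP2-1 the NIPs together were lower in hypoxia in each genotype. None of these TIP, SIP and NIP sums overlapped between conditions in any genotype. The PIP sum differed from Col in this respect, because its hypoxic and normoxic libraries overlapped in all 3 mutants, with ratios of 1.04 in vq1, 1.00 in vq10 and 1.02 in vq1vq10, against 1.11 in Col. These sums are descriptions with no test, and the TPM scale sets hypoxic values lower than the TMM scale by a median of 0.17 log2 in vq1, 0.24 in vq10, 0.10 in vq1vq10 and 0.25 in Col over the members. No member called in a genotype had the opposite sign on the TPM scale.

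**Figure D1:**
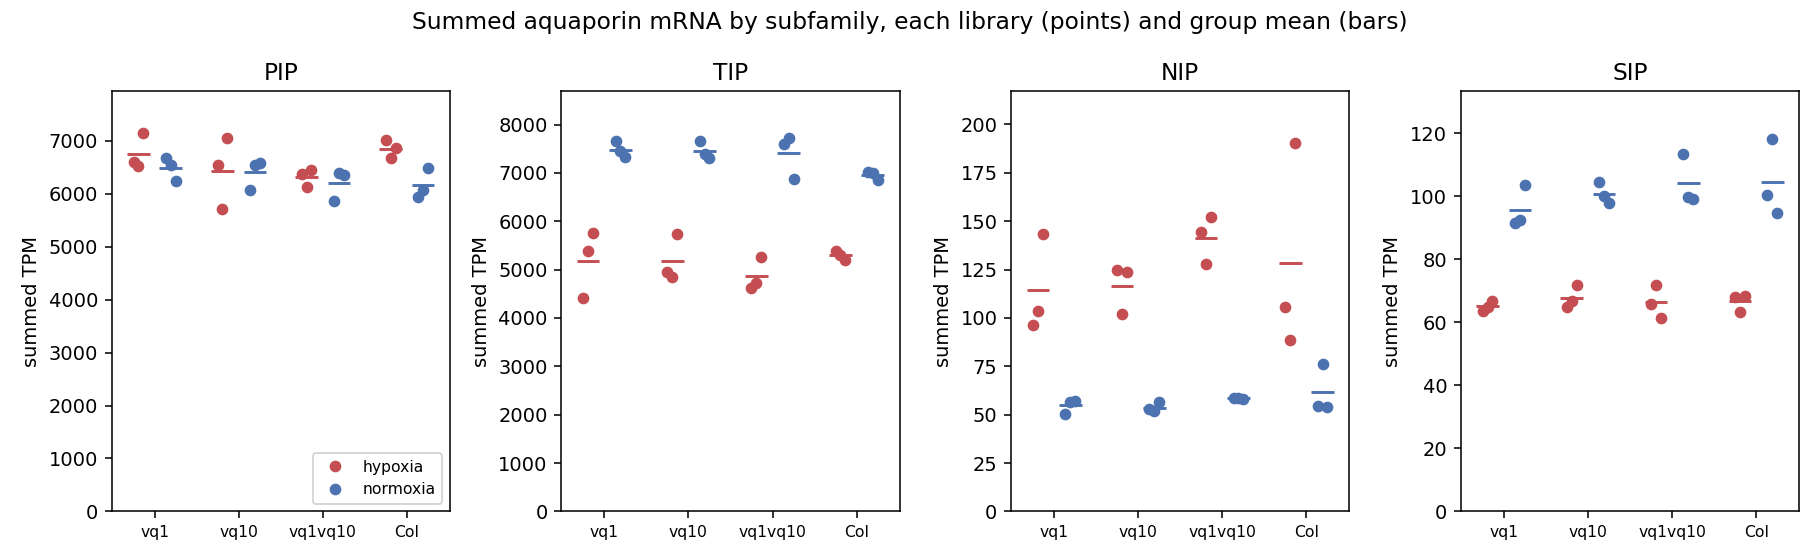
Summed TPM of each aquaporin subfamily (y axis, from 0) in hypoxic and normoxic libraries of the 4 genotypes, with points for libraries and bars for group means. TIP and SIP sums are lower and NIP sums higher in every hypoxic library than in the normoxic libraries of the same genotype, while PIP sums are separate between conditions in Col but not in the mutants.

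Hypoxia raised 7 and lowered 8 of the 30 aquaporin genes tested in Col, against a background of 41.8% of all 20110 genes called (21.9% up and 19.9% down). In vq1, 5 rose and 11 fell, against 35.6% of all genes called (19.1% up and 16.5% down). In vq10, 7 rose and 9 fell, against 37.7% (19.5% up and 18.2% down). In vq1vq10, 6 rose and 12 fell, against 33.4% (17.7% up and 15.7% down). The 30 genes were thus called at a share not far from that of all genes in Col, and at a higher share in the mutants, which was not tested. The risers in Col were 6 PIPs and 1 NIP, and the fallers were 2 genes of each of the 4 subfamilies. No TIP or SIP rose in any genotype. The median change over the 30 genes was -0.11 in vq1, -0.07 in vq10, -0.31 in vq1vq10 and -0.02 in Col, against -0.01 for all genes in each genotype. With scaling by total reads the split was 4 up and 14 down in vq1, 4 and 13 in vq10, 5 and 15 in vq1vq10 and 5 and 12 in Col.

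Hypoxia raised 5 genes in all 4 genotypes, namely PIP1-2, PIP1-4, PIP2-1, PIP2-3 and NIP2-1, where 12.1% of all genes did so. Another 6 fell in all 4, namely PIP1-5, PIP2-4, TIP4-1, NIP1-1, NIP5-1 and SIP2-1, against 8.77% of all genes. Of the others, 11 were called in 1 to 3 genotypes, 8 in none, and no gene was called in opposite directions. The 12 hypoxic libraries all lay above the 12 normoxic ones for PIP1-4, PIP2-1, PIP2-3 and NIP2-1, and all below for PIP1-5, PIP2-4, TIP4-1, NIP1-1 and SIP2-1. The share of all genes separate over 12 against 12 libraries was not computed, so this describes the named genes only. Within Col, 6 genes were higher and 8 lower in every hypoxic library than in any normoxic one, and 46.1% of all genes were separate in this way. The counts were 6 and 11 in vq1 (49.6% of all genes), 8 and 10 in vq10 (48.1%) and 6 and 14 in vq1vq10 (47.6%).

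**Figure D2:**
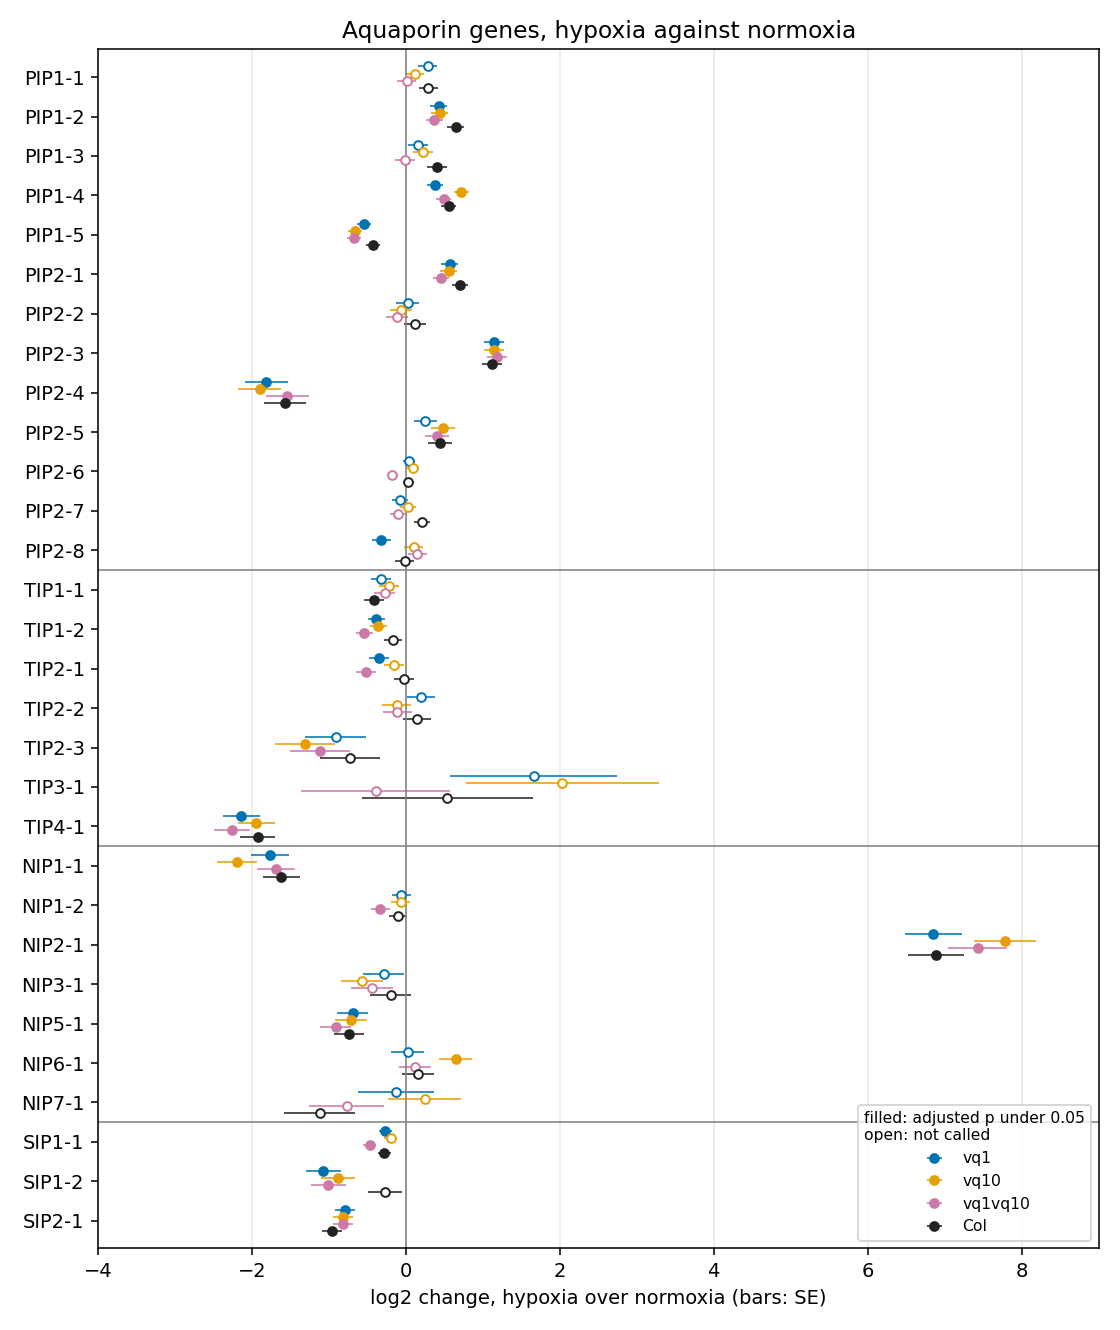
Log2 change, hypoxia over normoxia, of the 30 tested aquaporin genes in the 3 mutants and Col, with SE bars, grouped by subfamily. NIP2-1 stands at 6.84 to 7.78, PIP2-3 near 1.1, and PIP2-4, TIP4-1 and NIP1-1 between -1.54 and -2.26, in all 4 genotypes.

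NIP2-1 changed most of the family. It had 62.3, 52.4 and 117 CPM in hypoxic Col, against 0.589, 0.963 and 0.377 CPM in normoxic Col. The mutants had between 55.8 and 94.9 CPM in hypoxia and between 0.126 and 0.858 CPM in normoxia. Every hypoxic library was thus far above every normoxic one.

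In reads, NIP2-1 had 18540 counts over the 12 hypoxic libraries and 145 over the 12 normoxic ones, where the lowest library held 3. Its log2 change was 6.84 ± 0.37 in vq1, 7.78 ± 0.40 in vq10, 7.42 ± 0.38 in vq1vq10 and 6.89 ± 0.36 in Col (SE, edgeR adjusted p between 1.5e-12 and 3.4e-12). The fold in Col was 118. By TPM it ranked 15 of 33 in hypoxic Col, at 92.8 ± 50.7 TPM (SD, n = 3), and 29 in normoxic Col, at 0.963 ± 0.432 TPM. It was the highest NIP in hypoxic Col and the lowest tested NIP in normoxic Col. The hypoxic Col library of replicate 3, with 117 CPM, was the highest of all 24.

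Enzymes of lactate, ethanol and alanine metabolism are set beside NIP2-1 because lactic acid is its known cargo. Of these 6 genes, 5 rose in Col and none fell, where 21.9% of all genes rose and 19.9% fell. ADH1 (alcohol dehydrogenase) stood at 5.73 ± 0.34, PDC1 and PDC2 (pyruvate decarboxylases) at 5.76 ± 0.24 and 2.03 ± 0.12, and ALAAT1 (alanine aminotransferase) at 1.5 ± 0.10 log2 (SE, edgeR adjusted p of 1.6e-10 or less). LDH1, which makes the lactate, rose by 0.59 ± 0.13 (edgeR adjusted p = 0.000836). GOX3, known in Arabidopsis for oxidising lactate, stood at -0.44 ± 0.21 and did not pass (edgeR adjusted p = 0.0969).

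Among the PIP2 genes, which form the main water channels of the plasma membrane, PIP2-3 had the largest rise. It had 78.3, 103 and 87.7 CPM in hypoxic Col, against 44.4, 39.5 and 40.4 CPM in normoxic Col. PIP2-2, its near-identical neighbour, had 300.0, 259 and 322 CPM in hypoxic Col, against 270.4, 275 and 270.2 CPM in normoxic Col. The PIP2-3 libraries were separate and those of PIP2-2 overlapped.

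The change of PIP2-3 was 1.14 ± 0.13 in vq1, 1.14 ± 0.13 in vq10, 1.18 ± 0.13 in vq1vq10 and 1.11 ± 0.13 in Col (SE, edgeR adjusted p of 5.8e-07 or less). That of PIP2-2 was 0.02 ± 0.14, -0.07 ± 0.14, -0.12 ± 0.14 and 0.11 ± 0.14 in the same order, and no genotype passed. With the reads of both summed as 1 gene, the change in Col was 0.28 (edgeR adjusted p = 0.0966). PIP2-2 has far more reads than PIP2-3, so the sum follows PIP2-2 and cannot show how PIP2-3 alone changed. Reads from the identical stretches were divided by the authors' counting, and the part of that division in the PIP2-3 rise was not tested.

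PIP2-1 (AT3G53420) had 1861, 1707 and 1592 CPM in hypoxic Col, against 1045, 1043 and 1088 CPM in normoxic Col, without overlap. The mutants had 1719, 1543 and 1730.5 CPM in hypoxic vq1, 1725, 1323 and 1843 in hypoxic vq10, and 1531, 1329 and 1494 in hypoxic vq1vq10. All 9 were above the highest normoxic library of the series, at 1234 CPM. Its change was 0.56 ± 0.11 in vq1, 0.55 ± 0.11 in vq10, 0.45 ± 0.11 in vq1vq10 and 0.70 ± 0.11 in Col (SE, edgeR adjusted p of 0.0019 or less).

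PIP2-4 (AT5G60660), a root PIP that also passes hydrogen peroxide, fell. It had 4.51, 4.21 and 9.97 CPM in hypoxic Col, against 21.5, 16.9 and 17.7 CPM in normoxic Col. Replicate 3 of hypoxic Col was higher than the other 2 but below every normoxic library. The change was -1.82 ± 0.28 in vq1, -1.91 ± 0.28 in vq10, -1.54 ± 0.28 in vq1vq10 and -1.57 ± 0.27 in Col (SE, edgeR adjusted p of 0.00013 or less).

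Of the remaining PIP2 genes, PIP2-5 stood at 0.25 in vq1, 0.47 in vq10, 0.40 in vq1vq10 and 0.44 in Col, and passed in all but vq1. Its call in Col was lost without replicate 1 or 2 of hypoxic Col or replicate 2 or 3 of normoxic Col (log2 0.33, 0.33, 0.36 and 0.44), with only the Col libraries in the fit (0.44, edgeR adjusted p = 0.0975), and under total-read scaling (0.19). In vq10 it was lost without hypoxic replicate 2 or 3 or normoxic replicate 1 (0.39, 0.45 and 0.36) and under total-read scaling (0.25). In vq1vq10 it was lost without any of 17 libraries in turn (0.31 to 0.44), with unrounded counts (0.39), with no filter on low counts (0.41), with PIP2-2 and PIP2-3 summed (0.39) and under total-read scaling (0.29). PIP2-8 fell in vq1 by 0.33 and passed in no other genotype, and that call was lost without hypoxic vq1 replicate 1 or 2 or normoxic vq1 replicate 2 or 3 (edgeR adjusted p of 0.091 to 0.14) and with no filter on low counts (edgeR adjusted p = 0.0547). PIP2-6 and PIP2-7 did not pass in any genotype, with changes between -0.18 and 0.21. PIP2-7 passed in Col without hypoxic Col replicate 3 (0.30), and PIP2-6 in vq1vq10 without any of 7 libraries in turn (-0.19 to -0.23), with unrounded counts or the summed pair (-0.19 each), and with DESeq2 or total-read scaling (-0.18 and -0.29).

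The PIP1 genes encode channels that reach the plasma membrane by pairing with PIP2 partners. Of the 5, PIP1-2 and PIP1-4 rose in all genotypes and PIP1-5 fell in all. PIP1-4 (AT4G00430), which also passes hydrogen peroxide, had 277, 336 and 236 CPM in hypoxic Col, against 202, 179 and 198 CPM in normoxic Col. PIP1-5 (AT4G23400) had 211, 209 and 200 CPM in hypoxic Col, against 251, 278 and 306 CPM in normoxic Col. The changes of PIP1-4 were 0.37 in vq1, 0.72 in vq10, 0.49 in vq1vq10 and 0.55 in Col, and those of PIP1-5 were -0.55, -0.67, -0.68 and -0.43 in the same order, each with an SE of 0.09 to 0.10.

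PIP1-2 (AT2G45960) changed by 0.42 in vq1, 0.44 in vq10, 0.36 in vq1vq10 and 0.64 in Col, with an SE of 0.11 each. Its call in vq1vq10 was lost without hypoxic replicate 3 or normoxic replicate 1 of that line (log2 0.29 and 0.28). Total-read scaling ended the calls of PIP1-2 in vq10 (0.21) and of PIP1-4 in vq1 (0.19). PIP1-3 passed in Col at 0.40 ± 0.13 (SE, edgeR adjusted p = 0.016), and this was lost without replicate 2 of hypoxic Col or replicate 1 or 2 of normoxic Col (0.31, 0.38 and 0.31), with only the Col libraries in the fit (edgeR adjusted p = 0.0604) and under total-read scaling (0.16). In the mutants PIP1-3 stood at 0.15 in vq1, 0.22 in vq10 and -0.02 in vq1vq10, none past the test. PIP1-1 lay between 0.00 and 0.29 and passed in none, but passed in Col without hypoxic vq10 replicate 2 (0.27) and in vq1 without that library or normoxic vq1 replicate 1 (0.27 and 0.36).

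**Figure D3:**
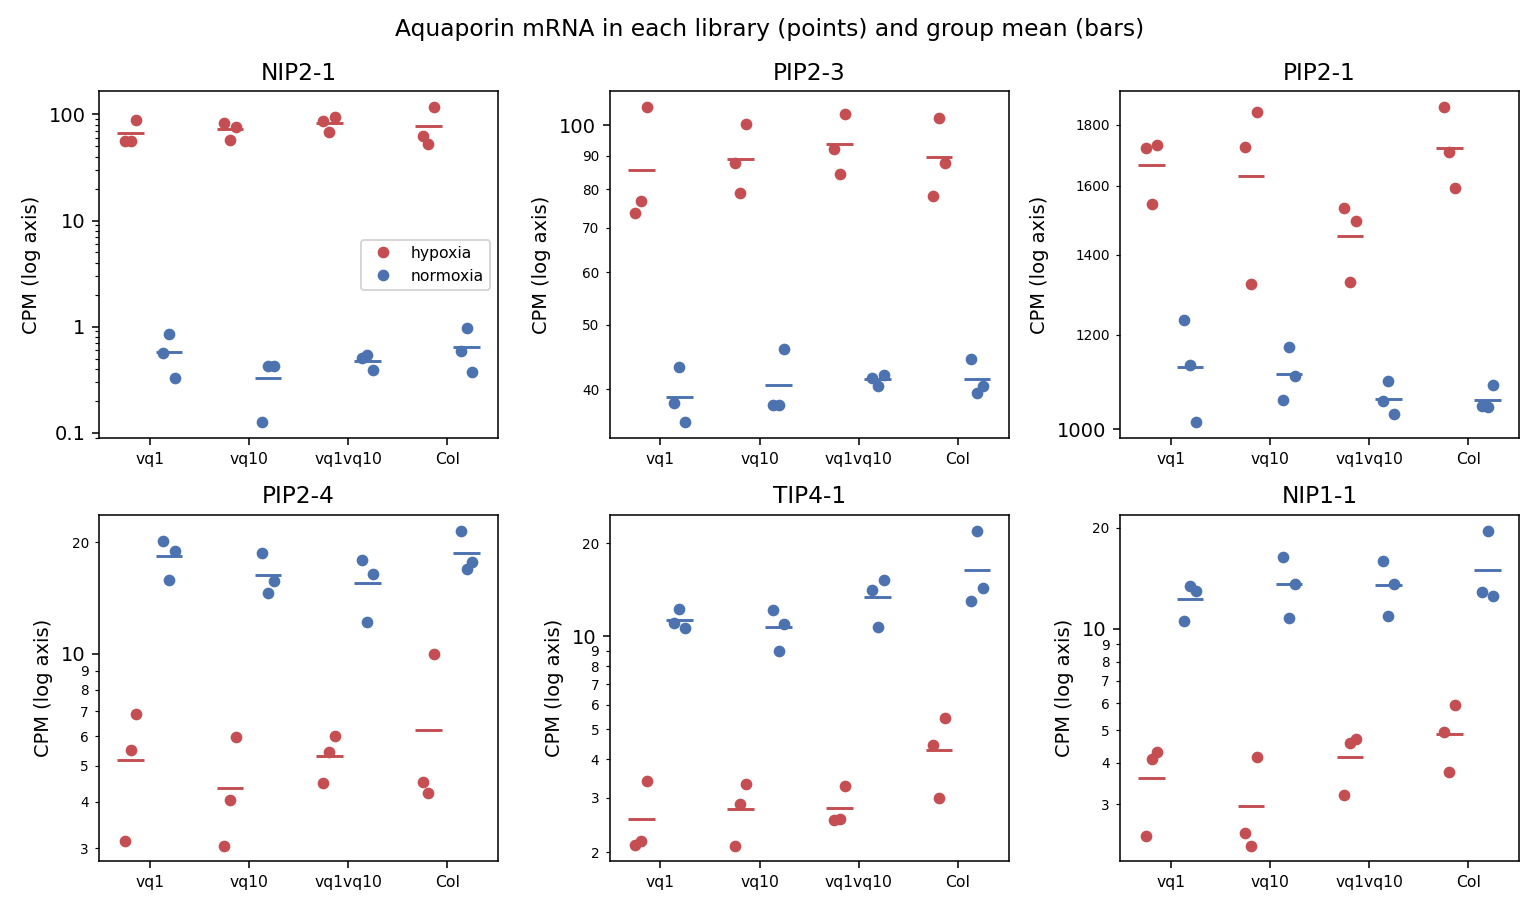
CPM (log axes) of NIP2-1, PIP2-3, PIP2-1, PIP2-4, TIP4-1 and NIP1-1 in each of the 24 libraries (points) with group means (bars), hypoxia and normoxia side by side within each genotype. In each panel the 12 hypoxic libraries lie on one side of the 12 normoxic ones.

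Among the vacuolar channels TIP4-1 (AT2G25810), which passes water and urea, had the largest fall of the family in Col. It had 4.46, 3.0 and 5.46 CPM in hypoxic Col, against 13, 22.0 and 14.4 CPM in normoxic Col. The mutants had 2.1 to 3.40 CPM in hypoxia and 8.98 to 15.3 CPM in normoxia. The change was -2.14 ± 0.24 in vq1, -1.95 ± 0.24 in vq10, -2.26 ± 0.23 in vq1vq10 and -1.93 ± 0.22 in Col (SE, edgeR adjusted p of 1e-06 or less).

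TIP1-2 (AT3G26520), the highest aquaporin, had 2994, 2870.5 and 2491 CPM in hypoxic Col, against 3338, 3092 and 2981 CPM in normoxic Col, with overlapping libraries. In vq1vq10 it had 2282, 2234 and 2604 CPM in hypoxia, against 3692, 3624 and 3055 CPM in normoxia, without overlap. It fell by 0.39 in vq1, by 0.36 in vq10 and by 0.54 in vq1vq10 (SE 0.11 each). Col stood at -0.17 ± 0.11 (SE, edgeR adjusted p = 0.23), and the difference of each mutant from Col in this response did not pass.

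The calls of TIP1-2 were lost without hypoxic vq1 replicate 1 (-0.32) and without hypoxic vq10 replicate 2 (-0.27), and in vq10 also with only its own libraries in the fit (-0.36, edgeR adjusted p = 0.0544). Under total-read scaling TIP1-2 passed in Col too, at -0.41 (edgeR adjusted p = 0.0012). TIP1-1 fell in Col by 0.42 ± 0.13 (SE, edgeR adjusted p = 0.015), and the mutants stood between -0.22 and -0.33, none past the test. In vq1 it passed without any of 6 libraries in turn (-0.33 to -0.53), with unrounded counts, with PIP2-2 and PIP2-3 summed (-0.34 each) and with DESeq2 (-0.33). Total-read scaling brought it past the test in all 3 mutants (-0.40 to -0.52). It also passed in vq10 without its hypoxic replicate 3 (-0.39) and in vq1vq10 without its hypoxic replicate 3 (-0.42). TIP2-1 fell by 0.35 in vq1 and by 0.52 in vq1vq10 and stood at -0.16 in vq10 and -0.03 in Col. The vq1 call of TIP2-1 was lost without hypoxic Col replicate 1, hypoxic vq1 replicate 1, or normoxic vq1 replicate 1 or 2 (-0.22 to -0.36), and with only the vq1 libraries in the fit (edgeR adjusted p = 0.0560). An antisense RNA, AT3G03265, covers 445 bases of TIP2-1.

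TIP2-3, a root TIP that passes ammonia, fell by 1.31 ± 0.39 in vq10 and by 1.12 ± 0.38 in vq1vq10 and stood at -0.92 in vq1 and -0.73 in Col. In vq1 it passed without hypoxic Col replicate 3, hypoxic vq10 replicate 3 or normoxic vq1 replicate 2 (-0.92 to -1.20), with only its own libraries in the fit (-0.92) and under total-read scaling (-1.10). In vq10 this was lost without hypoxic replicate 1 or 2 or normoxic replicate 1 (-1.05 to -1.08), and in vq1vq10 without any of its 3 hypoxic libraries or normoxic replicate 1 or 3 (-0.92 to -1.20). In Col it passed without hypoxic replicate 3 (-1.23, edgeR adjusted p = 0.025). TIP2-2 lay between -0.12 and 0.19 and passed in none. Of 5 ammonium transporters of the AMT family tested, 2 rose in Col, where 21.9% of all genes rose. These were AMT1-2, by 0.57 ± 0.14, and AMT1-4, by 2.42 ± 0.87 with 15 reads in hypoxic and 3 in normoxic Col.

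The seed channels TIP3-1 and TIP3-2 (alpha-TIP and beta-TIP of storage vacuoles) and the pollen channel TIP5-1 were close to absent. TIP3-1 had 124 reads over the 12 hypoxic libraries and 87 over the 12 normoxic ones, and its change ran between -0.39 and 2.03 with SEs of 0.97 to 1.26. TIP3-2 had 28 and 25 reads, TIP5-1 had 3 and 0 reads, and neither reached the count needed for the test. Beside TIP3-1, the summed level of 5 seed marker genes ran over 0.260 to 26.6 CPM in hypoxic and 0.172 to 7.43 CPM in normoxic libraries. Of the 3 seed markers tested, 2 rose in vq10, where 19.5% of all genes rose. None rose in vq1, vq1vq10 or Col, where 19.1%, 17.7% and 21.9% of all genes did. No seed marker had every hypoxic vq10 library above every normoxic one, and the seed sum within hypoxic vq10 ran over 0.260 to 26.6 CPM. The part of the seed markers in the TIP3-1 values was not tested.

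NIP1-1 (AT4G19030), known for arsenite and antimonite passage, was the other NIP with a large change. It had 4.93, 3.76 and 5.92 CPM in hypoxic Col, against 12.9, 19.6 and 12.5 CPM in normoxic Col. The 9 hypoxic mutant libraries, at 2.26 to 4.71 CPM, were likewise below the 9 normoxic ones at 10.5 to 16.4 CPM. Its change was -1.77 ± 0.25 in vq1, -2.20 ± 0.26 in vq10, -1.69 ± 0.25 in vq1vq10 and -1.62 ± 0.24 in Col (SE, edgeR adjusted p of 1.3e-05 or less).

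The close homologue NIP1-2 stood at -0.06 in vq1, -0.07 in vq10 and -0.11 in Col, and fell by 0.34 in vq1vq10, a call lost without hypoxic replicate 3 or normoxic replicate 1 of that line (-0.27 and -0.29) or with no filter on low counts (-0.33). NIP5-1, the boric acid channel of root uptake, had 6.03, 4.82 and 8.88 CPM in hypoxic Col, against 8.58, 14.7 and 9.86 CPM in normoxic Col, with overlapping libraries. It fell by 0.70 in vq1, by 0.71 in vq10, by 0.92 in vq1vq10 and by 0.74 in Col (SE 0.20 to 0.21). Without replicate 2 of normoxic Col the Col value was -0.50 (edgeR adjusted p = 0.0550), and without normoxic vq1 replicate 1 the vq1 value was -0.58 (edgeR adjusted p = 0.055).

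Of 6 borate exporters of the BOR family tested, 3 fell in Col and none rose, where 19.9% of all genes fell and 21.9% rose. BOR2 fell by 1.42 ± 0.17, BOR1, which loads boron into the xylem, by 1.05 ± 0.11 and BOR3 by 0.32 ± 0.10 (SE, edgeR adjusted p of 0.0147 or less). NIP6-1, a boric acid channel of shoot nodes, rose in vq10 by 0.64 ± 0.21 (SE, edgeR adjusted p = 0.022) and lay between 0.02 and 0.15 elsewhere. That rise was lost without hypoxic vq10 replicate 1 or 3 or normoxic vq10 replicate 1 (0.62, 0.61 and 0.42) and under total-read scaling (0.41). NIP3-1 and NIP7-1 passed in none, NIP7-1 with 128 reads over the hypoxic and 210 over the normoxic libraries. In Col NIP7-1 stood at -1.12 ± 0.46 (SE, edgeR adjusted p = 0.054) and passed without normoxic Col replicate 1 (-1.39). It also passed without any of 4 mutant libraries (-1.12 to -1.14) and under total-read scaling (-1.36). NIP4-2, a pollen NIP, had 14 and 42 reads over the hypoxic and normoxic libraries and was below the filter.

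The SIPs of the endoplasmic reticulum were lower in hypoxia. SIP2-1 fell by 0.79 in vq1, by 0.82 in vq10, by 0.82 in vq1vq10 and by 0.97 in Col, with an SE of 0.13 each. It had 8.65, 7.67 and 6.97 CPM in hypoxic Col, against 15.9, 17.1 and 12.4 CPM in normoxic Col. SIP1-1, the highest SIP, had 56.1, 55.2 and 49.8 CPM in hypoxic Col, against 62.3, 72.1 and 62.0 CPM in normoxic Col.

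SIP1-1 thus did not overlap between conditions in Col, and it fell by 0.27 in vq1, by 0.47 in vq1vq10 and by 0.29 in Col (SE 0.08 each). In vq10 it stood at -0.20 ± 0.08 (SE, edgeR adjusted p = 0.059) and passed without any of 7 libraries in turn (-0.21 to -0.29), with unrounded counts or the summed pair (-0.21 each), and under total-read scaling (-0.43). With only the Col libraries in the fit, the Col call was lost (edgeR adjusted p = 0.0736). SIP1-2, at 0.989 to 2.05 CPM in hypoxic and 1.97 to 3.06 CPM in normoxic libraries, fell by 1.07 in vq1, by 0.89 in vq10 and by 1.01 in vq1vq10 and stood at -0.27 ± 0.22 in Col (SE, edgeR adjusted p = 0.34). The gene AT5G18300 covers 444 bases of SIP1-2 on the opposite strand, and AT3G56940 covers 147 bases of SIP2-1.

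Of the tested aquaporins, 10 pairs were each other's closest relative in coding sequence. In Col, 3 pairs had the same call and 7 had 1 member called and the other not, and no pair had opposite calls. The pair of PIP2-2 and PIP2-3 (94.8% identical) stood at 0.11 and 1.11, NIP1-1 and NIP1-2 (85.1%) at -1.62 and -0.11, and TIP2-2 and TIP2-3 (81.5%) at 0.14 and -0.73. NIP5-1 and NIP6-1 (67.4%) stood at -0.74 and 0.15. Calls and changes could part, as neither TIP2-2 nor TIP2-3 was called in Col. SIP1-1 and SIP1-2 (77.0%) stood at -0.29 and -0.27, and only SIP1-1 was called. Differences between members of a pair were not tested.

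**Figure D4:**
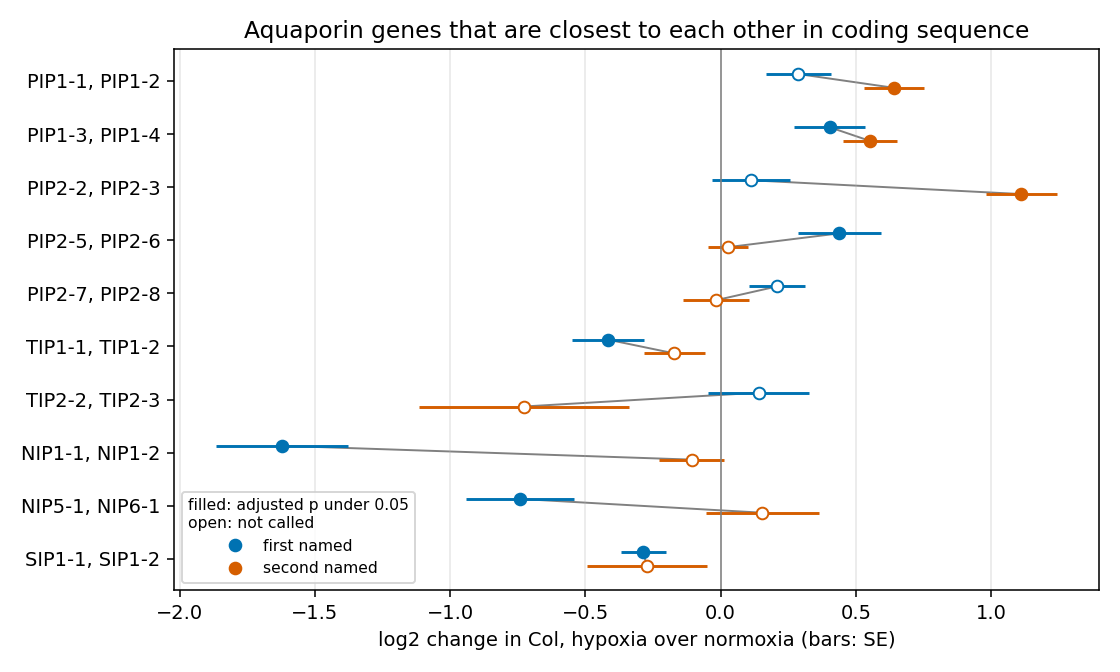
Log2 change in Col, hypoxia over normoxia, with SE bars, of the 10 pairs of aquaporin genes that are closest to each other in coding sequence. PIP2-2 and PIP2-3 stand at 0.11 and 1.11, and NIP1-1 and NIP1-2 at -1.62 and -0.11.

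Genes known to act on PIP proteins were listed as a group of 14, and 6 rose and 4 fell in Col. Of all genes 21.9% rose and 19.9% fell in Col. OST1, the kinase that phosphorylates PIP2-1 in guard cells, rose by 2.13 ± 0.13, TSPO, which sends PIP2-7 to degradation, by 2.55 ± 0.63, and RMA2, of the ubiquitin ligase family that acts on PIP2-1, by 1.09 ± 0.14. SIRK1, a receptor kinase that phosphorylates aquaporins, fell by 0.83 ± 0.12 (SE, edgeR adjusted p of 0.00242 or less for all 4). HCR1, a kinase known for lowering root water conductance under low oxygen, stood at 0.33 ± 0.18 (SE, edgeR adjusted p = 0.148). In the mutants this list had 4 up and 3 down in vq1, 4 and 2 in vq10 and 4 and 4 in vq1vq10. Of all genes 35.6%, 37.7% and 33.4% were called in these lines, in the same order.

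Of 9 plasma membrane proton pumps 3 fell in Col and none rose, where 41.8% of all genes were called. The pumps that fell were AHA7 by 2.1 ± 0.30, AHA2 by 0.93 ± 0.20 and AHA8 by 0.65 ± 0.15 (SE, edgeR adjusted p of 0.00101 or less). In the mutants 4 pumps fell in each line, and 1 rose in vq10 only. Of 11 subunits of the tonoplast proton pumps, which share the vacuolar membrane with TIPs, 2 rose in Col, AVP1 by 0.42 ± 0.09 and VHA-E1 by 0.23 ± 0.08, and VHA-B3 fell by 0.23 ± 0.07 (SE, edgeR adjusted p of 0.025 or less). Both pump lists were called in Col at a lower share than all genes. The plasma membrane pumps were called at a higher share than all genes in each mutant. Of the tonoplast subunits 3 were called in vq1, 5 in vq10 and 1 in vq1vq10. None of these shares was tested. The medians of these lists in Col were 0.21 for the PIP regulators, -0.05 for the plasma membrane pumps, -0.04 for the tonoplast pumps, -0.31 for the borate exporters and 1.77 for the lactate, ethanol and alanine enzymes, against -0.01 for all genes.

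Most listed markers of root cell types fell in Col, where 19.9% of all genes fell. PIP2-4, TIP4-1, NIP1-1 and NIP5-1 fell in all 4 genotypes, and TIP2-3 fell in vq10 and vq1vq10 and did not pass in vq1 or Col. These aquaporins are named here because they fell. Others did not, as PIP2-1, named above for leaf and root, and NIP2-1 rose in all 4 genotypes, and PIP2-2 and TIP2-2 passed in none. Whether markers and aquaporins varied together was not tested. Of 6 root hair markers 5 fell in Col, with a median of -2.17, and their summed level was 5.62 to 13.8 CPM in hypoxic and 20.5 to 60.9 CPM in normoxic libraries of all genotypes. Of 7 endodermis markers 6 fell in Col, with a median of -0.99, and the sums were 43.9 to 79.3 CPM in hypoxic and 80.0 to 136 CPM in normoxic libraries. Of all genes 16.5% fell in vq1, 18.2% in vq10 and 15.7% in vq1vq10. In those lines 5 of 6 root hair markers fell in each, and 3 endodermis markers fell in vq1, 6 in vq10 and 6 in vq1vq10. Neither list had a marker at 0 in any group. Of 5 leaf mesophyll markers 2 rose in Col, where 21.9% of all genes rose. Over all genotypes their sums were 64870.5 to 92774 CPM in hypoxic and 60968 to 73506 CPM in normoxic libraries, and overlapped. Within each genotype every hypoxic sum was above every normoxic one. The sums were 68883 to 92774 against 60968 to 67976 CPM in Col, and 64870.5 to 74463 against 63166 to 63922 CPM in vq1vq10. None of 4 guard cell markers passed in Col, where 41.8% of all genes were called.

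In whole seedlings, fewer cells of a type and less RNA per cell cannot be told apart, and the part of these markers in the aquaporin changes was not tested. The 3 pollen markers listed were not analysed here.

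No aquaporin gene passed the edgeR test in any mutant against Col or in any difference in response between a mutant and Col, and DESeq2 called none either. All of these comparisons share the Col libraries. Of all 20110 genes, 0.0796% were called in vq1, 0.0597% in vq10 and 0.0646% in vq1vq10 against Col in normoxia, and 0.0845%, 0.0646% and 0.0845% in hypoxia in the same order. In the 3 differences in response 0% of all genes were called. At an unadjusted p under 0.05 in normoxia there were 3 aquaporins in vq1, 4 in vq10 and 1 in vq1vq10, where 7.22%, 3.55% and 4.32% of all genes were. In hypoxia there were 2 in vq1, 3 in vq10 and 9 in vq1vq10, where 5.47%, 8.50% and 9.42% of all genes were. All of these were lower in the mutant. For the differences in response the counts were 1 in vq1, 0 in vq10 and 5 in vq1vq10, where 3.39%, 8.22% and 8.15% of all genes were.

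TIP4-1 was on this list in vq1 and vq10 in both conditions. In hypoxia its difference from Col was -0.75 in vq1 (95% interval -1.28 to -0.22), -0.64 in vq10 (-1.16 to -0.11) and -0.63 in vq1vq10 (-1.15 to -0.11), with edgeR adjusted p of 0.825, 0.528 and 0.439. Its hypoxic libraries in each mutant overlapped those of Col.

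The 9 genes in hypoxic vq1vq10 were PIP1-1, PIP1-2, PIP1-3, PIP1-5, PIP2-1, PIP2-7, TIP2-1, TIP4-1 and SIP1-1. PIP2-7 had 833, 868 and 962 CPM in hypoxic vq1vq10, against 1185, 1292 and 974 CPM in hypoxic Col, without overlap. Its difference was -0.37 ± 0.10 (SE, edgeR adjusted p = 0.318), the smallest adjusted p of the family. TIP2-1 had 1094, 1129 and 1331 CPM in hypoxic vq1vq10, against 1558, 1885 and 1319 CPM in hypoxic Col, and differed by -0.42 ± 0.13 (SE, edgeR adjusted p = 0.365). Without hypoxic Col replicate 3 both passed, PIP2-7 at -0.48 (edgeR adjusted p = 0.0261) and TIP2-1 at -0.53 (edgeR adjusted p = 0.0484).

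Of the 30 genes, 25 were lower in hypoxic vq1vq10 than in hypoxic Col by the fitted value, with a median of -0.20 against -0.01 for all genes. The vq1vq10 libraries all lay below those of Col for 7 of 30, and 12.2% of all genes did not overlap in this comparison. TMM factors of the hypoxic libraries were 0.962 to 1.018 in vq1vq10 and 0.876 to 0.97 in Col. With total-read scaling, 3 of the 30 were at an unadjusted p under 0.05, 20 were lower, and the median was -0.08. For NIP2-1 the difference of vq1vq10 from Col in hypoxia was 0.10 (95% interval -0.38 to 0.59), and for PIP2-3 it was 0.06 (-0.20 to 0.33).

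**Figure D5:**
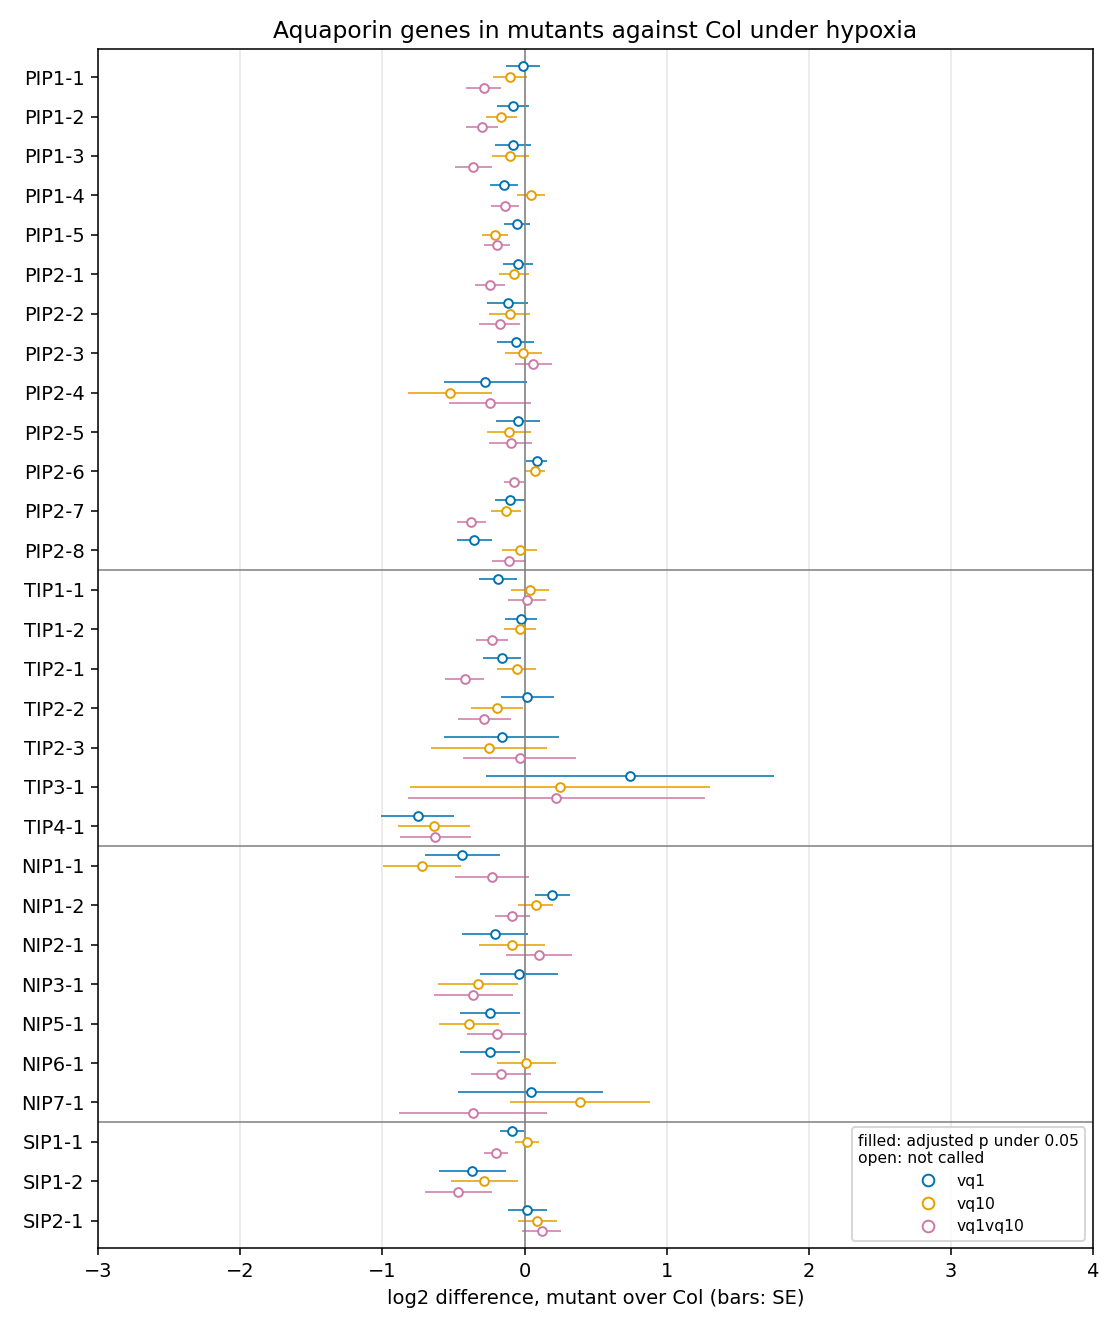
Log2 difference from Col under hypoxia of the 30 tested aquaporin genes in vq1, vq10 and vq1vq10, with SE bars. Open points throughout mark that no gene passed the test, and 25 of the 30 vq1vq10 points lie below 0.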

How the data were processed

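Per the submitters' processing notes, HISAT2 2.0.4, DESeq2 and the TAIR10 build were used. The counting tool and its strand setting were not stated there. The deposited tables hold estimated (expected) read counts, TPM and FPKM per gene and library. The authors' estimated counts were rounded, and genes were filtered with filterByExpr and tested in edgeR 4.0.16 (R 4.3.3) by glmQLFit with 1 mean per group over all 24 libraries and TMM scaling. The authors' TPM were used for levels between genes, and the deposited FPKM were not used. The common biological coefficient of variation was 0.127. Coding sequences were compared by global alignment, and the fit was tested on simulated data with a single spread shared by all genes. There, 42.4% of genes set to -0.5 log2 and 30.3% of those set to 0.5 were called in hypoxic against normoxic Col. All genes set to 1 or 2 log2 in either direction were called there. Many changes near 0.5 log2 would thus not be called. In the measured libraries NIP7-1 at -1.12 in Col and TIP3-1 at 2.03 in vq10, both with few reads, were not called. Calling at 1 log2 or more was not tested separately for genes with few reads, nor for genes with a wider spread.

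The members, lists and tests were chosen with earlier results of these data known. Values per library are given for genes called in Col with an absolute log2 change of 1 or more, for the highest gene of each subfamily by mean TPM, for genes called in a mutant against Col, and for PIP2-2 with PIP2-3. Other genes printed by library (PIP1-4, PIP1-5, NIP5-1, SIP2-1, PIP2-7 and TIP2-1) were chosen after their values were seen. Alternatives were RLE size factors, total-read scaling, no filter, DESeq2 1.42.0, only the compared libraries, a replicate block, unrounded counts, summing PIP2-2 with PIP2-3, and leaving out each library.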

Additional observations from a re-analysis of the deposited data

How the results depend on the processing

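Leaving out 1 library at a time, the aquaporin genes called numbered 13 to 18 in vq1, 13 to 17 in vq10, 14 to 19 in vq1vq10 and 12 to 17 in Col for hypoxia against normoxia, 0 to 2 for vq1vq10 against Col in hypoxia, and 0 for the other comparisons. With only the compared libraries in the fit the counts were 16, 15, 18 and 12, and with DESeq2 17, 17, 19 and 15, in the same order of genotypes. DESeq2 was run without the edgeR filter on low counts, so its counts can include aquaporins outside the set tested in edgeR. Under total-read scaling TIP2-1 in vq10 (-0.38), NIP3-1 in vq10 (-0.80), NIP1-2 in Col (-0.35) and PIP2-7 in vq1 and vq1vq10 (-0.26 and -0.23) passed as well. With that scaling PIP2-6 in Col turned to -0.22 (edgeR adjusted p = 0.011), against 0.03 with TMM, and total-read scaling lowers all hypoxic values by construction. Replicate numbers were not taken as pairs, because residuals of same-numbered libraries correlated with a median of 0.01 over 84 pairs of libraries (-0.24 to 0.38). Within a condition the median was 0.12 over 36 pairs, 20 of them above 0.1. Between groups that were compared with each other (both conditions of a genotype, or a mutant and Col in 1 condition), all 3 pairs were above 0.1 in no case, while they were for vq10 with vq1vq10 in each condition and for vq1 with vq1vq10 in hypoxia. With the replicate block the counts were 16 in vq1, 16 in vq10, 18 in vq1vq10 and 16 in Col. The block ended the call of PIP2-8 in vq1 (-0.32, edgeR adjusted p = 0.0531) and added TIP1-1 in vq1 (-0.34, edgeR adjusted p = 0.0304) and PIP1-1 in Col (0.29, edgeR adjusted p = 0.0454). RLE size factors gave the same 4 counts as TMM. Genes with few reads (TIP3-1, NIP7-1 and SIP1-2) have wide errors, and TIP3-2, TIP5-1 and NIP4-2 were below the filter of the main edgeR test.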
